A study of Mus musculus with 12 samples.

Results

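The receptors by which macrophages bind antibody-coated particles and dying cells were followed in mouse bone marrow–derived macrophages (BMDMs) given LPS, the human milk oligosaccharide 3′sialyllactose (3′SL), both, or neither. The 10 genes were taken by name, without regard to their values, and comprise 4 Fcγ receptor genes (Fcgr1, Fcgr2b, Fcgr3, and Fcgr4), the signaling chain gene Fcer1g, and 5 genes of apoptotic cell recognition (Gas6, Axl, Mertk, Timd4, and Trem2). They are 10 of the 43626 genes in the count files, and all 10 passed the filter on low counts that left 14308 genes for testing.

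RNA-Seq was performed on 12 libraries, 3 for each of 4 conditions: PBS vehicle, 100 μg/mL 3′SL (labeled HMO), 10 ng/mL LPS, and 10 ng/mL LPS with 100 μg/mL 3′SL, each for 6 hours. The labels name the cells as macrophages and the condition of each library. Their treatment text describes injections of mice with 3′SL or PBS, while their extraction text describes BMDMs exposed in culture, and the doses and the time given here come from the methods of the study. The strain, age, and number of mice that gave the marrow are not given in the sources used here. The labels do not say whether the 3 libraries of a condition came from separate cultures or animals. The study speaks of biological duplicates for part of the data and gives n = 3 for other parts of the same RNA-Seq figure, without tying either to libraries. The p-values therefore measure the spread between these libraries, which may be technical. Between 20411741 and 26851890 reads per library were counted on genes. The libraries fell into 3 sets of 4 consecutive library numbers, each holding 1 library of every condition. Deviations from the condition means correlated at 0.596 on average within sets and at −0.346 between sets, over 14308 genes. The sets were cut at 3 from clustering of these same deviations, so the correlations describe the sets and do not test them. Centering on the condition means also pushes the correlation between sets below 0. Libraries are numbered below by their set. The labels do not say what the sets are.

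All 8 macrophage markers (such as Csf1r, Cd68, and Adgre1) were detected, and their summed level was 19090.2 to 25194.3 CPM (reads of a gene relative to the scaled library size) without LPS and 25054.3 to 29245.5 CPM with LPS. The summed level of 7 neutrophil markers was 96.3 to 367 CPM without LPS and 159 to 729 CPM with LPS, and in set 3 it reached 729 CPM under LPS. Of these markers, S100a9, Ltf, S100a8, and Camp reached 316, 231, 147, and 31.8 CPM. Ly6g, Elane, and Mpo reached no more than 3.44 CPM in any library. The 6 stromal markers summed to 525 to 611 CPM in set 1, 22.2 to 40.9 CPM in set 2, and 53.7 to 96.2 CPM in set 3. Markers of B cells, of T and NK cells, and of mast cells and basophils each summed to no more than 3.50 CPM in any library, and the mast cell gene Fcer1a and the T cell genes Cd3e and Cd3g had no reads. The 4 dendritic cell markers summed to 0.912 to 2.11 CPM without LPS and 5.09 to 14.7 CPM with LPS. Of these, Xcr1 reached 13.99 CPM, while Flt3, Zbtb46, and Cd209a reached no more than 1.32 CPM in any library. In these bulk samples, a change in the number of cells of a type and a change in RNA per cell cannot be told apart.

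Fcγ receptors bind the constant part of IgG. The activating receptors encoded by Fcgr1, Fcgr3, and Fcgr4 are held at the membrane by the common γ chain, the product of Fcer1g, whose ITAM recruits the kinase Syk to start phagocytosis, whereas the receptor encoded by Fcgr2b carries an inhibitory ITIM that recruits phosphatases. Apoptotic cells are recognized by the phosphatidylserine on their surface. It is bound directly by TIM-4 (Timd4), or bridged by Gas6 to the TAM receptor tyrosine kinases Axl and Mertk, while Trem2 binds lipids and lipoproteins and signals through DAP12.

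In the GENCODE M21 annotation of mouse GRCm38, 4 of the genes lie in a stretch of 276 kb on chromosome 1, in the order Fcgr2b (chr1:170958617-170976547, minus strand), Fcgr4 (chr1:171018920-171029761, plus strand), Fcgr3 (chr1:171051174-171064935, minus strand), and Fcer1g (chr1:171229572-171234365, minus strand). Fcgr1 lies apart from them (chr3:96282909-96293969, minus strand). The other genes are Mertk (chr2:128698956-128802894, plus strand), Axl (chr7:25757273-25788705, minus strand), Gas6 (chr8:13465374-13494490, minus strand), Timd4 (chr11:46810800-46844332, plus strand), and Trem2 (chr17:48346401-48354147, plus strand). All 10 are protein coding. Of the words of 50 nucleotides in the Fcgr3 transcripts, 9.58% also occur in Fcgr2b transcripts, and 6.95% of the words of Fcgr2b occur in another gene (Fcgr3, Cplx2, or the predicted genes Gm38204 and Gm47409). Reads of this length from these stretches cannot be assigned to 1 gene by sequence. Exons of Fcgr2b overlap those of Gm38204 on the opposite strand by 155 bases, and exons of Gas6 overlap those of Tmem255b on the opposite strand by 34 bases. No word was shared for the other 8 genes.

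The promoters of Fcgr1, Fcgr4, Fcgr2b, and Timd4 are shown because these 4 genes rose more than 5-fold under LPS and were called higher under each way of scaling the libraries. Each window holds 300 bases of GRCm38.p6 from RefSeq, read 5′ to 3′ on the strand of the gene. It runs from 250 bases before the start used in the RefSeq set to 50 after it. The windows of Fcgr2b and Fcgr3 lie wholly within the GENCODE bounds of these genes, downstream of the GENCODE start. All 10 genes had a window in the RefSeq set, and Fcgr3 had a pair of overlapping ones. Capitals mark matches to either of 2 motifs searched on both strands: AANNGAAA, the core of elements bound by interferon regulatory factors, and GAGGAA, the core bound by the macrophage factor PU.1. A match on the other strand reads TTTCNNTT for AANNGAAA and TTCCTC for the PU.1 core. The Fcgr1 window is chr3:96293920-96294219 (minus strand), the Fcgr4 window chr1:171018676-171018975 (plus strand), the Fcgr2b window chr1:170976022-170976321 (minus strand), and the Timd4 window chr11:46810549-46810848 (plus strand).
Fcgr1: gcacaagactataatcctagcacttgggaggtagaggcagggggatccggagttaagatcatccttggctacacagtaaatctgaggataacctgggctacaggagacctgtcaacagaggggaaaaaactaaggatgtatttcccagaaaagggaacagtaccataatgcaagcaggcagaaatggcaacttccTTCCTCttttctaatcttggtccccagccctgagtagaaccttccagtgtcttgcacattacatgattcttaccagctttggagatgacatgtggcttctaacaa
Fcgr4: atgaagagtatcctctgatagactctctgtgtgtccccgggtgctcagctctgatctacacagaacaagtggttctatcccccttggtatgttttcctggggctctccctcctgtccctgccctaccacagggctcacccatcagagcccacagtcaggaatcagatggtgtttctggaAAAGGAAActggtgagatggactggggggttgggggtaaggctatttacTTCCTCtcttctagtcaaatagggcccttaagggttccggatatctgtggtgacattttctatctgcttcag
Fcgr2b: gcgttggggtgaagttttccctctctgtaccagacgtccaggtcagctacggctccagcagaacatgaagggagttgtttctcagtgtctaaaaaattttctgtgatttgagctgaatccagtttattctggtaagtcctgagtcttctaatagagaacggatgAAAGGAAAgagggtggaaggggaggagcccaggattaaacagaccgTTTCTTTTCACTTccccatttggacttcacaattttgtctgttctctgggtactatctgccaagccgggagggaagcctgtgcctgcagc
Timd4: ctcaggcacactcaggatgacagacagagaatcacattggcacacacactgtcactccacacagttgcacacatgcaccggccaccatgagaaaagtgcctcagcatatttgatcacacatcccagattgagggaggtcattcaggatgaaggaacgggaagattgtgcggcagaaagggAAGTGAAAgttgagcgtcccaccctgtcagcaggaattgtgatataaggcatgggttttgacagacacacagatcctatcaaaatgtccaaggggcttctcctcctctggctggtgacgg

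The interferon regulatory factor core was matched in Fcgr4, Fcgr2b, Timd4, and Gas6, against 23.9% of 32851 mouse promoter windows of the same length. Counted from the start used in each window, the match lay 71 bases before it in Fcgr4, 70 in Timd4, and 151 in Gas6. In Fcgr2b the matches lay 86, 40, and 35 bases before that start, the last pair overlapping. The Fcgr2b matches are within the GENCODE bounds of the gene. The PU.1 core was matched in 5 of the 10 genes (Fcgr1, Fcgr3, Fcgr4, Axl, and Trem2), against 28.3% of all windows. Neither motif was matched in the windows of Fcer1g and Mertk. These are matches of letters, chosen with the responses of the genes known, and binding was not measured.

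Under LPS alone, 8 of the 10 genes were called higher than under PBS, where a call needed an adjusted p under 0.05 in edgeR's quasi-likelihood test and at least a 1.5-fold change. Fcgr1 rose 9.94-fold, Fcgr2b 8.95-fold, Timd4 7.92-fold, and Fcgr4 5.74-fold, followed by Mertk (2.28-fold), Fcer1g (1.97-fold), Fcgr3 (1.78-fold), and Axl (1.72-fold). Gas6 and Trem2 had lower means under LPS and were not called. Among all 14308 genes, 38.5% were called in this comparison, 18.3% higher and 20.2% lower. LPS and PBS libraries did not overlap for 9 of the 10 genes (all but Gas6), as for 58.4% of all genes. Within the library sets, 8 genes were higher in every set and Gas6 and Trem2 lower in every set.

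**Figure D1:**
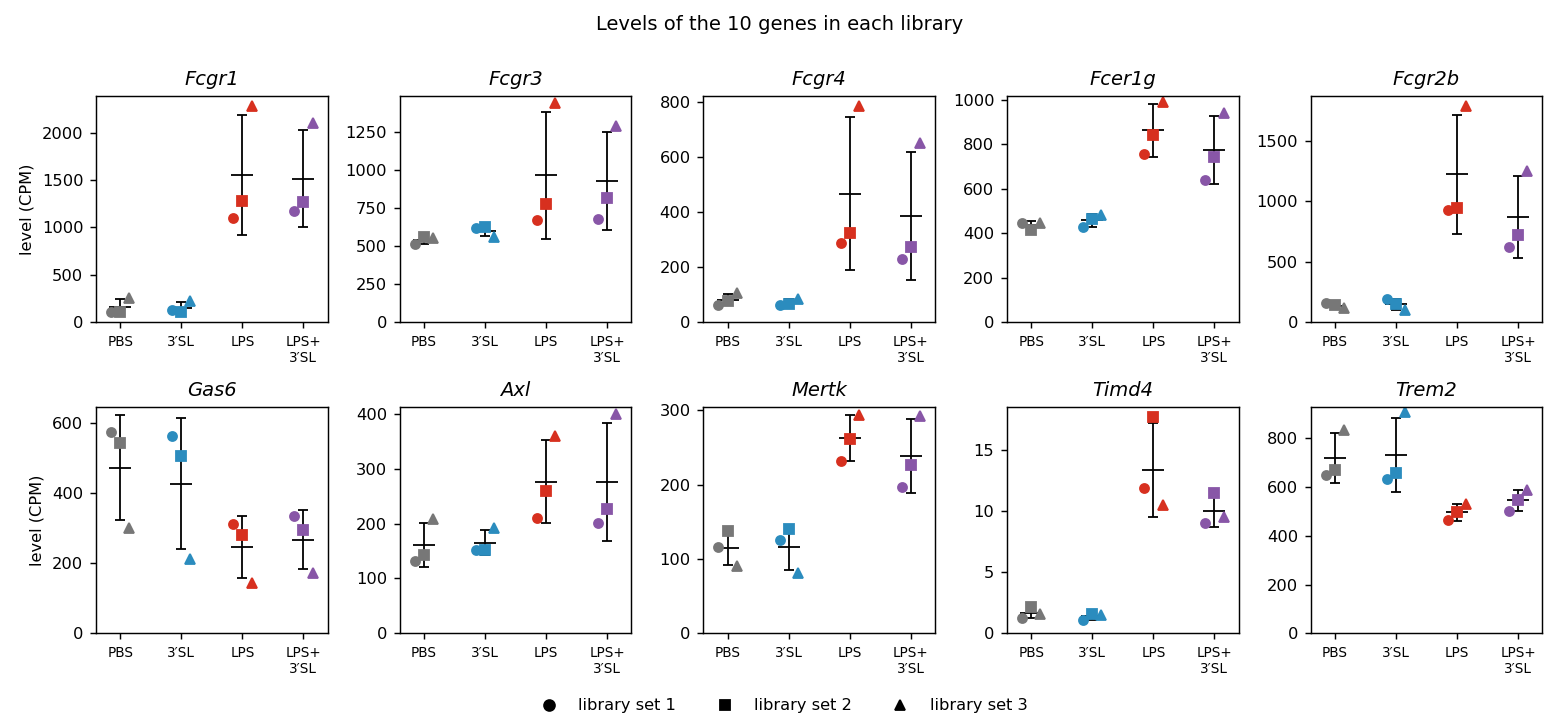
Level of each of the 10 genes (CPM, linear axis from 0) in each of the 12 libraries, by condition. Symbols give the library set, and the bar with its whiskers gives the mean and SD of 3 libraries. LPS libraries of the 4 Fcγ receptor genes lie above all libraries without LPS, with set 3 highest, whereas Trem2 libraries with LPS (463 to 587 CPM) lie below those without (631 to 906 CPM).

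Among the activating receptors, Fcgr1, which encodes the high-affinity receptor for IgG2a, changed most. Its level was 105, 111, and 252 CPM in the PBS libraries of sets 1 to 3 and 1102, 1273, and 2281 CPM in the LPS libraries. The LPS + 3′SL libraries were similarly high, at 1170, 1271, and 2100 CPM, and the 3′SL libraries low, at 123, 109.6, and 227 CPM. Libraries with and without LPS did not overlap. The log2 fold change for LPS against PBS was 3.31 ± 0.47 (SE, edgeR adjusted p = 0.000189), and within the sets it was 3.39, 3.52, and 3.18. Fcgr1 was thus alike across the sets in its change, while in level set 3 stood above the others with and without LPS.

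Fcgr4, encoding a receptor for IgG2a and IgG2b, was at 63.2, 76.7, and 104 CPM under PBS and at 288, 324, and 787 CPM under LPS. This was a log2 fold change of 2.52 ± 0.47 (SE, edgeR adjusted p = 0.0012) and was 2.19, 2.08, and 2.92 within the sets. Set 3 gave both the highest level and the largest change, and without its LPS library the log2 fold change was 1.91.

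Fcgr3, the low-affinity activating receptor gene, changed less. It was at 512, 561, and 550.3 CPM under PBS and at 673, 777, and 1443 CPM under LPS. The 3 LPS libraries lay above the 3 PBS libraries, with the set 3 library farthest away. The log2 fold change was 0.83 ± 0.29 (SE, edgeR adjusted p = 0.0357), and within the sets it was 0.39, 0.47, and 1.39. The call depended on single libraries. Without the LPS library of set 3 the log2 fold change was 0.42 (edgeR adjusted p = 0.181), and without the PBS library of set 1, 2, or 3 the adjusted p was 0.0964, 0.0784, or 0.0739.

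Fcer1g, the common γ chain, rose with the receptors it carries. It was at 446, 416, and 446 CPM under PBS and at 753, 841, and 989 CPM under LPS, with no overlap. Its log2 fold change was 0.98 ± 0.15 (SE, edgeR adjusted p = 0.000395), and 0.76, 1.02, and 1.15 within the sets. Fcer1a, which encodes the ligand-binding chain that Fcer1g serves in mast cells, had no reads in any library.

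The inhibitory receptor gene Fcgr2b was the second most increased member. It was at 154, 139.8, and 116 CPM under PBS and at 932, 945, and 1792 CPM under LPS. Set 3 was the lowest of the PBS libraries and the highest of the LPS libraries. Its log2 fold change was 3.16 ± 0.37 (SE, edgeR adjusted p = 4.93e-05) and was 2.59, 2.76, and 3.95 within the sets. B cells also express Fcgr2b, and the summed level of 4 B cell markers was at most 2.75 CPM in any library.

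In the set 3 libraries with LPS, where Fcgr1, Fcgr2b, Fcgr3, and Fcgr4 were highest, the 7 neutrophil markers also summed to their highest values, 729 CPM under LPS and 663 CPM under LPS + 3′SL. In sets 1 and 2 the same markers summed to 96.3 to 161 and 191 to 319 CPM over all conditions. The part of these markers in the receptor levels was not tested. The log2 fold changes of Fcgr1, Fcgr2b, and Fcgr4 in set 1, where neutrophil markers were lowest, were 3.39, 2.59, and 2.19. For Fcgr3 it was 0.39 in set 1 and 1.39 in set 3.

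**Figure D2:**
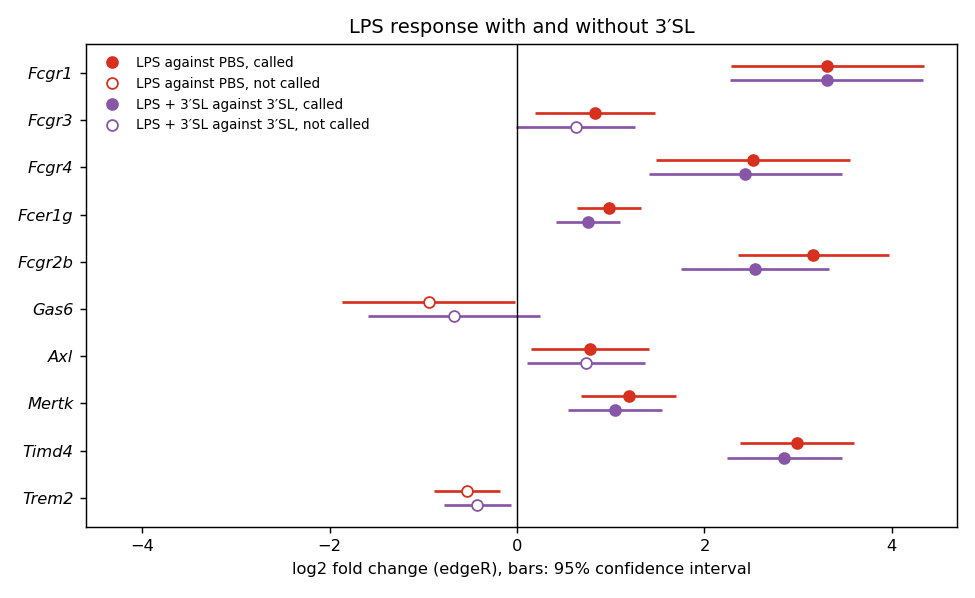
Log2 fold change of each gene under LPS, without 3′SL (LPS against PBS) and with it (LPS + 3′SL against 3′SL), with 95% confidence intervals from edgeR. Filled points were called. Fcgr1, Fcgr2b, Fcgr4, and Timd4 lie between 2.43 and 3.31 in both comparisons, and for each gene the intervals of both comparisons overlap.

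The balance between the inhibitory and activating receptor genes was measured as the ratio of Fcgr2b to the sum of Fcgr1, Fcgr3, and Fcgr4, each per kilobase of merged exons. Under PBS the ratio was 0.0691, 0.0565, and 0.0403 in sets 1 to 3, and under 3′SL it was 0.0737, 0.0571, and 0.0368. Under LPS it was 0.154, 0.136, and 0.132, and under LPS + 3′SL it was 0.106, 0.105, and 0.105. The ratio was higher in every library with LPS than in any without. Across both levels of 3′SL, LPS raised it 2.26-fold (1.18 log2 units, exact permutation test, 2-sided, p = 0.005, the smallest that 400 arrangements allow, adjusted p = 0.02 over 4 tests). When the 3 activating genes were given equal weight as a mean of log2 values, the increase was 0.69 log2 units (exact permutation p = 0.02). Under PBS most of the sum was Fcgr3 (312 CPM per kilobase, beside 60.3 for Fcgr1 and 64.7 for Fcgr4), which changed least of the 3. Beside Fcgr1 alone, Fcgr2b did not rise more (log2 fold change 3.16 against 3.31). It rose less in set 1 (2.59 against 3.39) and set 2 (2.76 against 3.52), and more in set 3 (3.95 against 3.18).

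**Figure D3:**
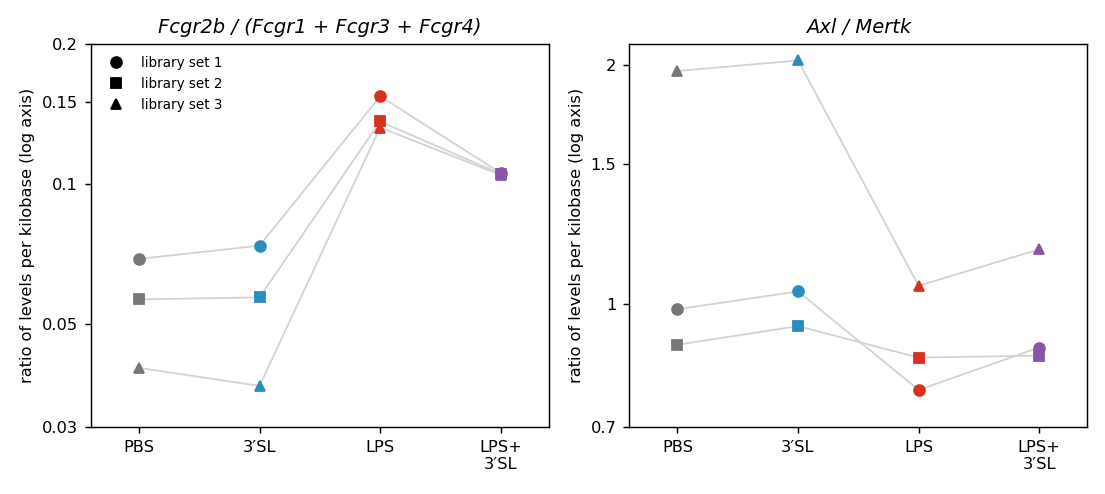
Ratios of levels per kilobase of merged exons in each library (log axes), with lines joining the libraries of a set. Left, Fcgr2b to the sum of Fcgr1, Fcgr3, and Fcgr4, which lies at 0.0368 to 0.0737 without LPS, 0.132 to 0.154 under LPS, and 0.105 to 0.106 under LPS + 3′SL. Right, Axl to Mertk, which is highest in set 3 in all 4 conditions.

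Among the genes of apoptotic cell recognition, the TAM receptor genes Axl and Mertk were called higher under LPS, and the mean of the ligand gene Gas6 was lower. Tyro3 and Pros1, a further TAM receptor gene and ligand gene outside the 10, were not called. Their log2 fold changes were 0.50 and 0.21 (edgeR adjusted p = 0.609 and 0.314), and they were named after their values were seen. Gas6, which bridges phosphatidylserine to the TAM receptors, was at 573, 543, and 300.5 CPM under PBS and at 311, 281, and 144 CPM under LPS. The set 3 PBS library lay within the range of the LPS libraries, so the groups overlapped, although Gas6 was lower with LPS in every set, by 0.88, 0.95, and 1.06 log2 units. Over all libraries, the log2 fold change was −0.94 ± 0.42 (SE, edgeR adjusted p = 0.0873), and it was not called. With the library set as a block in the fit it was −0.97 ± 0.10 and called lower (edgeR adjusted p = 4.88e-06). With that block, 9 of the 10 genes were called (8 higher, 1 lower), against 44.6% of all genes.

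Axl encodes the TAM receptor that binds Gas6 most tightly. It was at 133, 143, and 208 CPM under PBS and at 209.8, 260.0, and 360 CPM under LPS. The highest PBS and lowest LPS libraries were 208 and 209.8 CPM, so the groups were separate but adjacent. For Axl the log2 fold change was 0.78 ± 0.29 (SE, edgeR adjusted p = 0.0434) and was 0.66, 0.87, and 0.79 within the sets. Leaving out any of 7 libraries (PBS of set 1 or 2, 3′SL of set 1 or 2, LPS of set 2 or 3, or LPS + 3′SL of set 2) ended the call, with adjusted p between 0.0505 and 0.175, and with the block the adjusted p was 7.82e-05.

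Mertk, the TAM receptor most associated with engulfment by macrophages, was at 116, 138, and 91.0 CPM under PBS and at 232, 261, and 294 CPM under LPS. The groups did not overlap. The log2 fold change was 1.19 ± 0.23 (SE, edgeR adjusted p = 0.00145) and was 0.999, 0.92, and 1.69 within the sets. As with Fcgr2b, set 3 was lowest before LPS and highest after it.

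The ratio of Axl to Mertk, per kilobase of merged exons, was 0.986, 0.890, and 1.97 in the PBS libraries and 0.780, 0.857, and 1.06 in the LPS libraries. It was lower with LPS in every set, by 0.34, 0.05, and 0.90 log2 units, mostly in set 3. Over both levels of 3′SL the difference was −0.41 log2 units (exact permutation p = 0.155, adjusted p = 0.31 over 4 tests). With labels exchanged only within sets, the exact permutation p was 0.03125, the smallest that this design allows. In sets 1, 2, and 3 the stromal markers summed to 525 to 611, 22.2 to 40.9, and 53.7 to 96.2 CPM. Their part in the levels of Gas6 and Axl, which were lowest and highest in set 3, was not tested.

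Timd4 had few reads throughout, 29 to 62 in the libraries without LPS and 171 to 365 in those with LPS. Its level was 1.26, 2.17, and 1.62 CPM under PBS and 11.9, 17.7, and 10.5 CPM under LPS, a clear separation at low levels. The log2 fold change was 2.99 ± 0.28 (SE, edgeR adjusted p = 1.08e-05), and 3.23, 3.02, and 2.70 within the sets.

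Trem2, at 648, 671, and 836 CPM under PBS, was at 463, 495, and 532 CPM under LPS. Every LPS library lay below every PBS library. The log2 fold change was −0.53 ± 0.16 (SE, edgeR adjusted p = 0.0184), which passed the p-value threshold but was a 1.45-fold difference and so was not called. Within the sets it was −0.49, −0.44, and −0.65. Without the PBS library of set 1 it was −0.60 and was called (edgeR adjusted p = 0.024).

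Levels were compared between genes as CPM divided by exon length in kilobases (RPKM). With merged exon lengths, the PBS order was Fcer1g (499 ± 19.9 RPKM, SD, n = 3), Fcgr3 (312 ± 14.96), Gas6 (185 ± 58.6), Trem2 (145 ± 20.7), Fcgr4 (64.7 ± 16.6), Fcgr1 (60.3 ± 32.2), Axl (32.0 ± 8.09), Mertk (26.5 ± 5.44), Fcgr2b (23.6 ± 3.34), and Timd4 (0.776 ± 0.212). Neighbors overlapped between Gas6 and Trem2, between Fcgr4 and Fcgr1, and along Fcgr1, Axl, Mertk, and Fcgr2b. Under LPS, Fcer1g (985 ± 136 RPKM) was followed by Fcgr1 (599.5 ± 246), Fcgr3 (555 ± 241), Fcgr4 (371 ± 222), and Fcgr2b (211 ± 85.1), each overlapping the next, so that the 4 Fcγ receptor genes came to stand above Trem2 (100.4 ± 6.94) and Gas6 (96.3 ± 34.9). The order depended on the transcript length for Trem2, whose merged exons (4946 bases) are 4.55 times as long as its principal transcript (1088 bases). With principal transcripts, Trem2 stood first under PBS (660.2 ± 94.0 RPKM), overlapping Fcer1g (647 ± 25.8), and under LPS it (456 ± 31.6) stood after Fcer1g, Fcgr3, and Fcgr1.

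When LPS was given with 3′SL and compared with 3′SL alone, 6 of the 10 genes were called, all higher, against 29.2% of all genes (14.3% higher and 14.8% lower). They were Fcgr1 (log2 fold change 3.31), Timd4 (2.85), Fcgr2b (2.54), Fcgr4 (2.43), Mertk (1.04), and Fcer1g (0.76). Axl (0.74, edgeR adjusted p = 0.0657) and Fcgr3 (0.62, edgeR adjusted p = 0.12) kept their sign without passing the threshold, and Gas6 (−0.68) and Trem2 (−0.42) were again lower in mean. Libraries did not overlap for 9 of the 10 genes, as for 46.6% of all genes. With the library set block, 8 of the 10 were called (7 higher and Gas6 lower), against 35.8% of all genes. The 2 LPS comparisons share no library.

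The question of the study was what 3′SL changes in macrophages with and without LPS. For these 10 genes, no change by 3′SL was called. In 3′SL against PBS, 0 of 10 were called by edgeR or DESeq2, 0 had an unadjusted p under 0.05 in edgeR, and the largest fitted difference was 1.22-fold. In LPS + 3′SL against LPS, 0 of 10 were called by either tool, 0 had an unadjusted p under 0.05 in edgeR, and no gene differed by more than 1.41-fold. Over all genes, edgeR called 0% in either comparison. DESeq2 called 0.615% and 0.79% of all genes, and 10.1% and 6.95% had an unadjusted p under 0.05 in edgeR. The interaction, which asks whether LPS acted differently with 3′SL, likewise had 0 of 10 called by either tool and 0 at an unadjusted p under 0.05. Of all genes, edgeR called 0% and DESeq2 called 0.308% for the interaction, and 6.09% had an unadjusted p under 0.05 in edgeR. With the library set block, where 2.84%, 1.45%, and 1.55% of all genes were called in these 3 tests, none of the 10 was called, and 0, 1, and 1 of them had an unadjusted p under 0.05, against 24%, 15.3%, and 17.3% of all genes. With the block and without set 3, 2, 6, and 5 of the 10 had an unadjusted p under 0.05, against 21.7%, 20.1%, and 19.2% of all genes, and 1 was called, Fcgr2b in the interaction. No gene of the 10 had separate libraries in 3′SL against PBS or in LPS + 3′SL against LPS, against 17.5% and 12.7% of all genes.

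Fcgr2b had the largest difference in LPS + 3′SL against LPS. It was at 626, 718, and 1255 CPM with both agents and at 932, 945, and 1792 CPM with LPS alone. It was lower with 3′SL in every set, by 0.57, 0.40, and 0.51 log2 units, while the groups overlapped because set 3 was highest in both of these conditions. The log2 fold change was −0.50 ± 0.34 (SE, 95% confidence interval −1.24 to 0.25, edgeR adjusted p = 0.954). With the library set block it was −0.49 ± 0.31 (edgeR adjusted p = 0.506). The edgeR adjusted p depended on the fit and was as low as 0.0081 over 24 alternatives, none of which called Fcgr2b in this comparison. Without LPS, the differences were 0.33, 0.11, and −0.19 in the 3 sets. The interaction was −0.62 ± 0.48 (SE, edgeR adjusted p = 0.887), and only in the block fit that left out set 3 was it called (−0.68, edgeR adjusted p = 0.0103).

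The ratio of Fcgr2b to the activating receptor genes was lower in each LPS + 3′SL library than in any LPS library. The difference was −0.42 log2 units, or 1.34-fold, with −0.55, −0.37, and −0.34 in the 3 sets (exact permutation test of 3 libraries against 3, 2-sided, p = 0.1, the smallest that 20 arrangements allow). Between 3′SL and PBS it was −0.01 log2 units (exact permutation p = 1). Averaged over both levels of LPS, the difference was −0.21 log2 units (exact permutation p = 0.28, adjusted p = 0.373 over 4 tests).

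Timd4 was at 8.98, 11.5, and 9.49 CPM with LPS + 3′SL. It was lower than with LPS alone in every set, by 0.40, 0.62, and 0.15 log2 units, and overlapped it (log2 fold change −0.42 ± 0.25, 95% confidence interval −0.98 to 0.14, edgeR adjusted p = 0.877). With the library set block it was −0.40 ± 0.15 (95% confidence interval −0.74 to −0.06, edgeR adjusted p = 0.23) and was not called. In that fit Timd4 was the 1 gene of the 10 with an unadjusted p under 0.05. Timd4 was also lower with 3′SL than with PBS in every set (−0.29 ± 0.27 over the 3 libraries, edgeR adjusted p = 0.782), on 29 to 62 reads a library. Fcgr4 was at 231, 274, and 651 CPM with LPS + 3′SL, lower than with LPS in every set by 0.32, 0.25, and 0.27 log2 units (−0.28 ± 0.44 over the 3 libraries, 95% confidence interval −1.25 to 0.70). Its edgeR adjusted p was as low as 0.0238 over 24 alternatives, none of which called it.

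Adding 3′SL to LPS went with lower levels of 5 of the 10 genes and higher levels of 2 in all 3 sets. Beside Fcgr2b, Fcgr4, and Timd4, these were Fcer1g and Mertk (lower by 0.07 to 0.24 and 0.01 to 0.23 log2 units) and, on the higher side, Gas6 (0.07 to 0.25) and Trem2 (0.12 to 0.15). None of these differences was called, and the share of all genes with 1 sign in all 3 sets was not counted. Signs of the fitted changes also depended on scaling. With libraries scaled by total counts, 5 of the 10 genes had a positive log2 fold change in this comparison, against 2 with the main scaling. The 95% confidence interval for Fcer1g was −0.49 to 0.18 and for Fcgr1 −0.98 to 0.91, and with the block the Fcgr1 interval was −0.23 to 0.21.

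**Figure D4:**
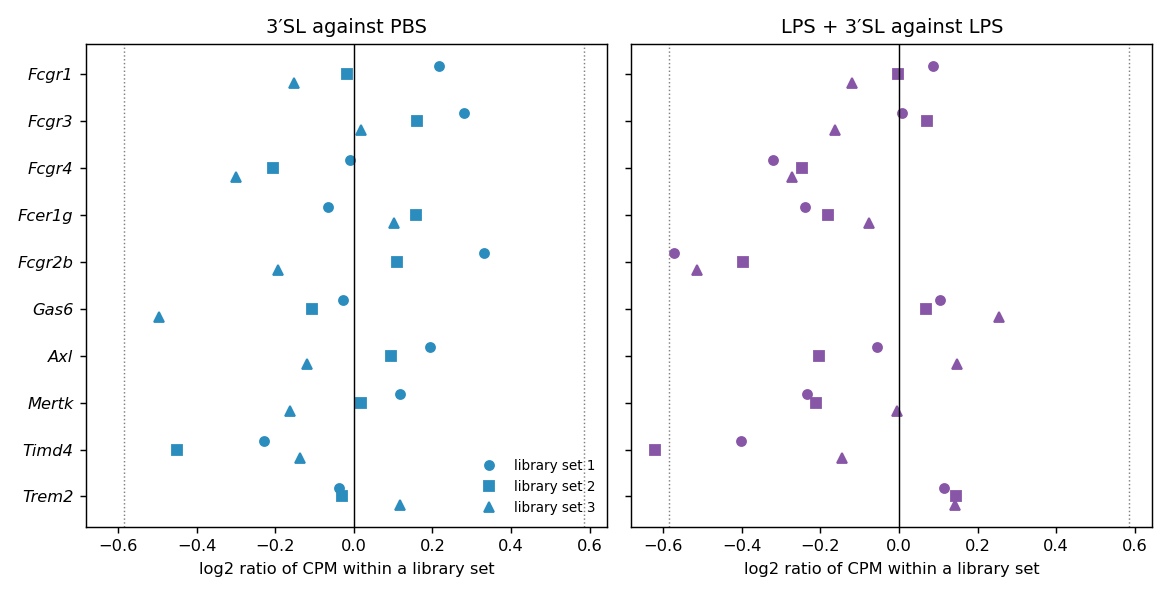
Log2 ratio of CPM with 3′SL to without it in each library set (symbols), without LPS (left) and with LPS (right). Dotted lines mark 1.5-fold, which 1 point passes (Timd4 with LPS in set 2, −0.62). Fcgr2b, Fcgr4, Timd4, Fcer1g, and Mertk are left of 0 in all 3 sets with LPS.

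Among 47 other genes of Fc receptor function and signaling, 44 were tested. Under LPS, 16 were called higher, 7 lower, and 21 not called, while 18.3% of all genes were called higher and 20.2% lower. The median log2 fold change was 0.39 beside −0.06 for all genes. With total-count scaling 13 were called higher and 16 lower, with a median of −0.27 beside −0.71. That scaling called 1535 genes higher and 6657 lower of all 14308. Src, a Src family kinase, rose from 4.12 ± 0.996 to 124 ± 35.6 CPM (SD, n = 3, log2 fold change 4.91, edgeR adjusted p = 5.6e-06). Trim21, which encodes a cytosolic receptor for antibody, rose from 29.8 ± 4.97 to 325 ± 32.1 CPM (3.45). Genes called lower included the adaptor gene Lat2 (log2 fold change −1.28) and Plcg1, which encodes a phospholipase C (−1.12). Inpp5d (−1.14), which encodes SHIP1, a phosphatase that the inhibitory receptor recruits, was also called lower. Inpp5d fell from 367 ± 78.7 to 166 ± 34.8 CPM while Fcgr2b rose. Of other phosphatase genes in the list, Ptpn6 was called higher (1.52), and Ptpn11 (0.58) and Inppl1 (0.02) were not called. The kinase gene Syk was called higher (1.80). Ptpn6, Ptpn11, Inppl1, and Syk were named after their values were seen.

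Among 56 other genes of apoptotic cell clearance, 52 were tested. Under LPS, 11 were called higher, 13 lower, and 28 not called, while 18.3% of all genes were called higher and 20.2% lower. The median log2 fold change was 0.10 beside −0.06 for all genes. With total-count scaling 8 were called higher and 23 lower, with a median of −0.55 beside −0.71. That scaling called 1535 genes higher and 6657 lower of all 14308. Slc7a11, a cystine transporter gene, rose from 11.6 ± 9.21 to 165 ± 64.8 CPM (SD, n = 3, log2 fold change 3.83, edgeR adjusted p = 0.0165). Scarf1, a scavenger receptor gene, rose from 25.7 ± 3.02 to 117 ± 13.9 CPM (2.19), and Treml2 from 4.39 ± 0.613 to 21.3 ± 6.18 CPM (2.27). The nuclear receptor genes Pparg (−2.00) and Rxra (−1.89), which act in the response to engulfed lipid, were called lower, as were Rxrb (−0.74) and S1pr1 (−2.13), which encodes a receptor for a lipid released by dying cells. The nuclear receptor gene Nr1h3, which encodes LXRα, was called higher (2.10, edgeR adjusted p = 5.12e-05), as was Abca1 (1.74), the cholesterol exporter gene. Rxrb, Nr1h3, and Abca1 were named after their values were seen. In the 3′SL comparisons edgeR called 0 genes of either list. At an unadjusted p under 0.05 there were 7 and 10 genes of the 2 lists in 3′SL against PBS and 3 and 5 in LPS + 3′SL against LPS, of 44 and 52 tested, beside the 10.1% and 6.95% of all genes.

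In 3′SL against PBS, the fit with the library set block called 2.84% of all genes. Of the 2 lists, it called 1 of 44 tested Fc receptor signaling genes and 7 of 52 tested clearance genes. They were Cblb (log2 fold change −0.74) and, all higher, Slc7a11 (3.28), Trem1 (2.69), Treml4 (1.66), Thbs1 (1.47), Trem3 (1.17), Slc2a1 (0.79), and Abca1 (0.65). In LPS + 3′SL against LPS with the block, Dok2 (0.74), Inpp5d (0.73), and Cd300lb (0.71) were called higher, against 1.45% of all genes called. In the interaction with the block, 3 of the 44 and 4 of the 52 genes were called, all lower, against 1.55% of all genes. They were Lcp2 (−0.73), Prkcd (−0.72), and Syk (−0.62), and Slc7a11 (−3.50), Trem1 (−2.15), Thbs1 (−1.96), and Abca1 (−0.78). These genes were named after their values were seen.

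**Figure D5:**
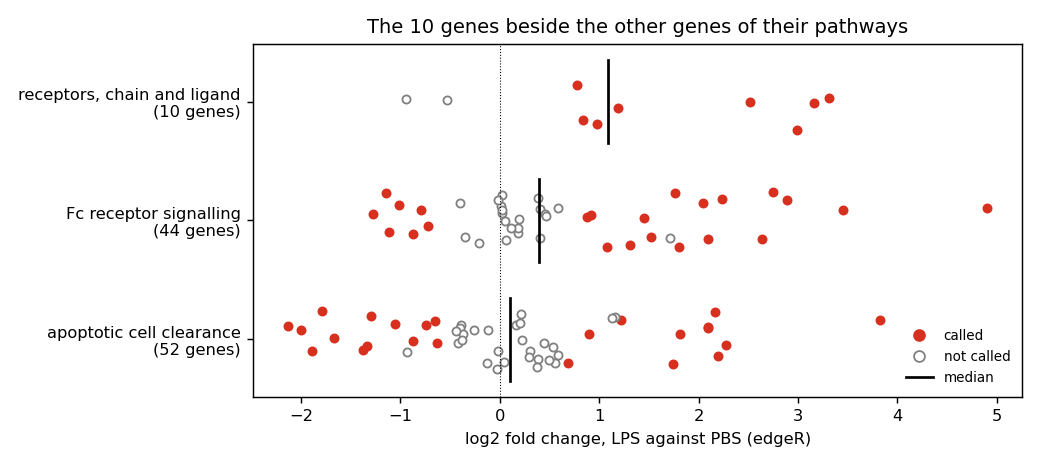
Log2 fold change for LPS against PBS of the 10 genes and of the other tested genes of both pathways (1 point per gene, spread vertically to separate points). Filled points were called, and vertical bars are medians, 0.39 for Fc receptor signaling and 0.10 for apoptotic cell clearance (−0.27 and −0.55 with total-count scaling), beside 1.09 for the 10 genes.

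For each of the 10 genes, the gene with the most similar profile was the one with the smallest root mean square (RMS) difference of centered log2 CPM over the 12 libraries. For Fcgr1 it was Ifi35 (RMS difference 0.178), for Fcgr2b Bst1 (0.182), for Fcgr4 Rin2 (0.197), and for Timd4 Fam49a (0.209). For Fcgr3 it was Khnyn (0.140), for Fcer1g Fxr1 (0.0782), for Gas6 Vegfb (0.133), for Axl Unc93b1 (0.0796), for Mertk Dram2 (0.0833), and for Trem2 Aspscr1 (0.0407). No member was the nearest gene of another.

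The LPS comparison depended on how libraries were scaled. When libraries were scaled by their total counts alone, the median over all genes for LPS against PBS moved from −0.06 to −0.71, and the calls from 2613 higher and 2889 lower to 1535 higher and 6657 lower. Of the 10 genes, 6 were then called: Fcgr1 (2.63), Fcgr2b (2.46), Timd4 (2.35), and Fcgr4 (1.81) higher, and Gas6 (−1.57) and Trem2 (−1.19) lower. Mertk (0.52), Fcer1g (0.32), Fcgr3 (0.14), and Axl (0.11) kept their sign and lost the call.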

How the data were processed

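RNA-Seq libraries of BMDMs were analysed, 3 for each of 4 conditions. The values the authors deposited are unnormalized whole-number read counts of genes, 1 file per library. The submitters' processing notes name FastQC, Trimmomatic, STAR, HTSeq, and DESeq2, per the labels; versions, genome build, and strand setting are not given in the sources used here, and libraries were stranded. Doses and times are from the paper. Between 33.2% and 37.1% of reads in the files were not counted on a gene and were left out of library sizes.

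Identifiers were matched to GENCODE M21 (GRCm38), which named 42548 of 43626 genes. The tests used edgeR 4.0.16 (R 4.3.3): filterByExpr, TMM factors, and a quasi-likelihood fit with 1 mean per condition over 12 libraries, with Benjamini-Hochberg adjustment over 14308 genes. CPM values use library sizes scaled by TMM. Ratios were tested by exact permutation within the level of the other treatment. Replicate libraries differed beyond sampling noise (chi-square per gene 15.6 to 115). It was 15.6 to 20.3 between replicates in sets 1 and 2, and 65.3 to 115 between either of these and set 3. The code recovered changes planted in simulated counts.

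The labels carry no replicate number, so libraries were numbered in accession order, which ran parallel to the library sets. The sets were found from the data, and the fit with the set as a block is an alternative (common biological coefficient of variation 0.133 with and 0.310 without it). Other alternatives were DESeq2 1.42.0, other scalings, filters and thresholds, only the conditions compared, and leaving out each library. Leaving out a set, the block with total counts, and principal transcript lengths were chosen after seeing the data. The members, lists, motifs, and sets were chosen with earlier results of these data known. Genes named are the 10 members, up to 3 per direction and list with the largest change among those called, and the nearest gene of each member. Others are marked as named after their values were seen. A gene and a motif that these choices would give are not reported here.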

Additional observations from a re-analysis of the deposited data

Results flagged for a closer look

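The sign of the Gas6 difference with 3′SL was opposite without and with LPS in every library set. It was lower with 3′SL than with PBS in all 3 library sets (by 0.03, 0.11, and 0.50 log2 units) and higher when 3′SL was added to LPS in all 3 (0.10, 0.07, and 0.25). The interaction was 0.27 ± 0.59 on the log2 scale (SE, 95% confidence interval −1.02 to 1.56, edgeR adjusted p = 0.979), and with the library set block 0.35 ± 0.14 (edgeR adjusted p = 0.217), so the difference did not pass the threshold in either fit. The largest of the differences, in set 3 without LPS, was between 300.5 and 213 CPM.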

How the results depend on the processing

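The number of members called, in either direction, moved by less than 1.5 times under each alternative, with 1 exception. The interaction had 1 member called (Fcgr2b) rather than 0 in the block fit leaving out set 3. The direction and identity of the calls moved more. With total counts, LPS against PBS had 4 members called higher and 2 lower, rather than 8 higher and 0 lower. Leaving out single libraries gave 6 to 9 members called in LPS against PBS and 6 to 7 in LPS + 3′SL against 3′SL, and 0 in the others. The 3′SL counts of the lists moved from 0. For Fc receptor genes in 3′SL against PBS there was 1 call with DESeq2, 1 with the block, 1 with the block leaving out set 3, and 2 with the block and total counts. For clearance genes in this comparison there were 1, 7, 6, and 3 under the same settings, and 1 with the block leaving out set 1. In LPS + 3′SL against LPS, Fc receptor genes had 2 calls with the block, 2 with the block leaving out set 3, and 2 with the block and total counts, and clearance genes had 1, 2, and 1 under the same settings. The Axl to Mertk ratio passed an unadjusted threshold when exchanged only within sets, for LPS (−0.41 log2 units, exact permutation p = 0.03125) and for 3′SL (0.0893 log2 units, exact permutation p = 0.03125), the smallest p of that design. The cause was not tested. The labels carry no replicate numbers, so the block was the library set found from the data. Depth limited Timd4 most, with 29 to 62 reads in libraries without LPS.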
